A study of Rattus rattus with 6 samples.

Results

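The 3 chains of the interstitial fibrillar collagens (Col1a1, Col1a2 and Col3a1), fibronectin (Fn1) and the collagen-binding glycoprotein Sparc were followed in the left ventricle of young and old rats. These 5 genes were taken by identifier out of 23976 genes listed: ENSRNOG00000003897 (Col1a1), ENSRNOG00000011292 (Col1a2), ENSRNOG00000003357 (Col3a1), ENSRNOG00000014288 (Fn1) and ENSRNOG00000012840 (Sparc). All 5 were found in the table and all 5 passed the filter on low values. The symbols came with the identifiers that define the set. The table holds identifiers only, and 0 of them occurred in the reference gene table used here, so the symbols were not checked against a second source.

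The animals were untreated, wild type male Wistar-Kyoto rats, an inbred strain, of 3 months (young adult) or 24 months (old adult), with 3 libraries per age and 1 library per animal per the labels. The labels give the species as Rattus rattus, whereas the named genome build, mRatBN7.2, is that of Rattus norvegicus. Levels are TPM, an abundance per transcript length with a fixed sum per library, so the depth behind a value is unknown and no counting interval can be given. Left ventricle is a mixture of cell types, and in such bulk tissue fewer cells of a type and less RNA per cell cannot be told apart. Marker genes of fibroblasts, myocytes and other cells carry no symbol in the table, so the labelled tissue and its cell makeup were not checked.

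Type I collagen, built from the Col1a1 and Col1a2 chains, and type III collagen, built from Col3a1 chains, form the fibrils that hold cardiac muscle bundles together, and are made mainly by cardiac fibroblasts. Fibronectin is secreted as a soluble glycoprotein, is assembled into fibrils at the cell surface through integrins, and serves as a scaffold on which collagen is laid down. Sparc (osteonectin) is a secreted matricellular protein that binds fibrillar collagens and takes part in procollagen processing and fibril assembly, and endothelial cells and fibroblasts of the heart are known sources of it. All of these are studied in cardiac fibrosis and ageing.

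Sparc and the collagens did not follow one pattern with age. Values are given on 2 scales. On the first, TPM were used as deposited. On the second, called rescaled TPM, the 15 genes with a mean of 1000 TPM or more were left out and the other genes were brought to a sum of 1000000 per library. The share of TPM outside these 15 genes was 6.39%, 10.6% and 10.5% in young replicates 1, 2 and 3, and 5.84%, 6.05% and 5.08% in the old libraries OH1, OH2 and OH5. Because this share moved with age, a gene at one deposited level in both ages takes a larger part of the remaining RNA in old ventricle. Sparc was lower in every old library than in every young one on both scales. After rescaling, each collagen was above the young range in OH1 and OH5 and within or just below it in OH2, an arrangement that deposited TPM did not show for Col1a1 and Col1a2.

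**Figure D1:**
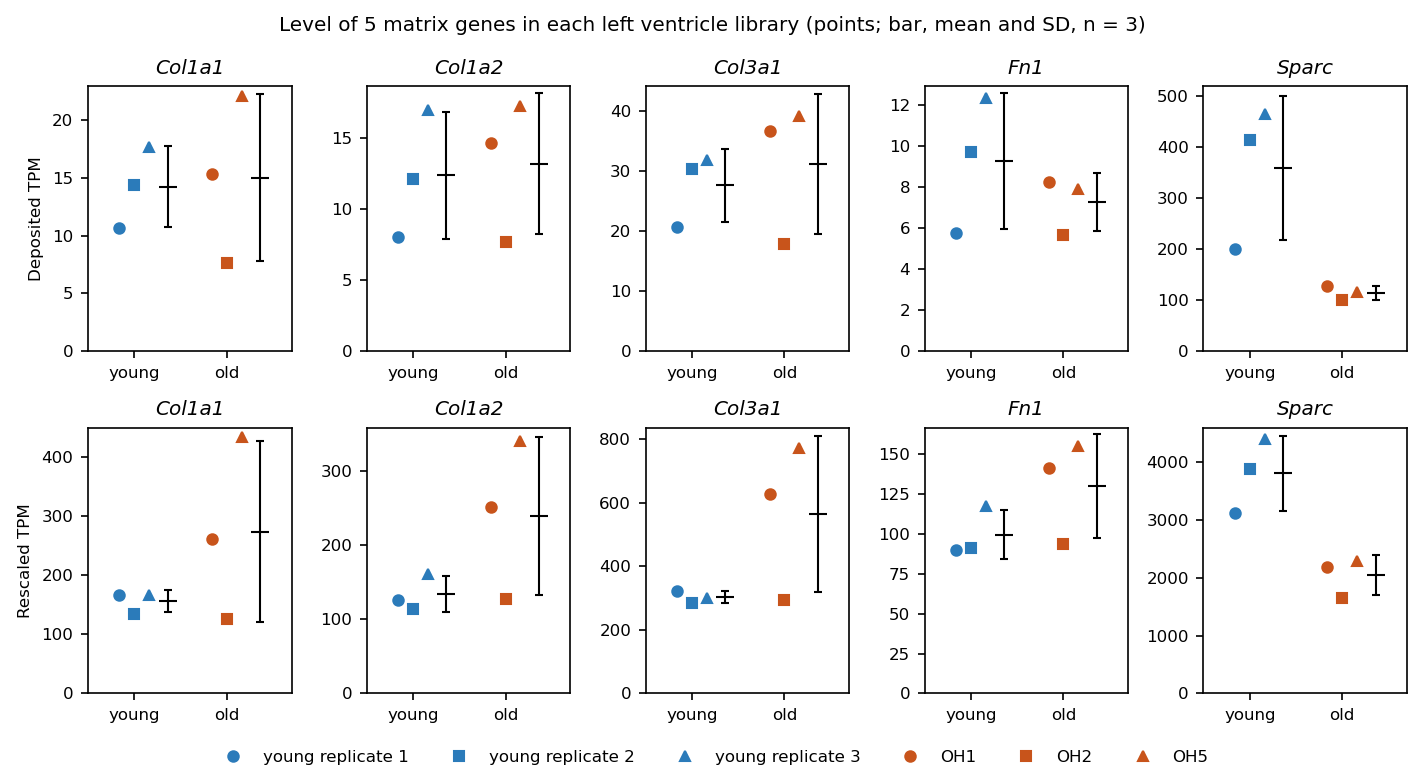
Level of each gene in the 6 libraries, in deposited TPM (top) and rescaled TPM (bottom), each on a linear axis from 0; points are libraries and the bar gives mean and SD (n = 3). Sparc is lower in all 3 old libraries on both scales, and OH2 (old, square) lies apart from OH1 and OH5 for the collagens.

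Sparc was by far the most abundant of the 5 genes. Deposited Sparc levels were 199.8, 414 and 464 TPM in young replicates 1, 2 and 3 and 127, 100.03 and 117 TPM in OH1, OH2 and OH5. The lowest young library thus lay above the highest old one, and the young libraries were spread more widely than the old. Mean Sparc was 359 ± 140 TPM at 3 months against 115 ± 13.7 TPM at 24 months (SD, n = 3), 3.13-fold higher in the young animals. Sparc fell with age on this scale, with a log2 fold change of -1.55 ± 0.36 (SE) and a limma-trend adjusted p of 0.00148. The adjusted p was 0.0903 without a filter on low values and 0.0534 when only genes at 0 in every library were removed, so the call ended there. With all libraries and the filter, Sparc was the only gene of the 5 past the threshold (adjusted p below 0.05) on this scale. Of the 9502 genes tested there, 47.7% were called, 0.884% higher and 46.8% lower in old, so the call is one that Sparc shares with many genes. The share called ran from 4.08% without OH5 to 93.2% without young replicate 1. Its place among all genes is a further description: 25 of the 9502 genes had a lower log2 fold change, and the median of all genes was -0.53.

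After rescaling, Sparc stood at 3126, 3888 and 4407 TPM in the young libraries and at 2180.2, 1655 and 2299 TPM in OH1, OH2 and OH5. The ages again did not overlap, as for 29.7% of the 9487 genes tested on this scale (55% on the deposited scale). The means were 3807 ± 644 in young and 2045 ± 343 in old (SD, n = 3), a 1.86-fold higher mean in young. The log2 fold change was -0.90 ± 0.23 (SE, 95% interval -1.42 to -0.37), and the limma-trend adjusted p of 0.0585 missed the threshold. On this scale 6.07% of genes were called, 2.66% higher and 3.42% lower in old. Here 102 of 9487 genes had a lower log2 fold change than Sparc, against a median of all genes of -0.04. The call depended on single choices: the limma adjusted p was 0.0486 without young replicate 1, 0.0336 without the intensity trend, 0.0446 after median-ratio scaling and 0.0272 after quantile normalization. Over all 15 alternatives on this scale it ran from 0.0272 to 0.744. On either scale p was 0.1 in an exact two-sided permutation test of the 6 libraries, and 3 against 3 can give no smaller value.

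The chains of type I collagen were high in OH1 and OH5 and spread more widely among old than among young libraries. Rescaled Col1a1 levels were 167, 135 and 167 TPM in young replicates 1, 2 and 3, and 262, 126 and 433 TPM in OH1, OH2 and OH5. OH1 and OH5 thus lay above every young library and OH2 below every young library. The means were 156 ± 18.5 in young and 274 ± 154 in old (SD, n = 3), with a log2 fold change of 0.64 ± 0.38 (SE) and a limma adjusted p of 0.351. Rescaled Col1a2 stood at 127, 114 and 161 TPM in young and at 251, 128 and 340.2 TPM in OH1, OH2 and OH5. OH2 lay within the young range and the other old libraries above it. Its log2 fold change was 0.74 ± 0.32 (SE, 95% interval 0.00 to 1.48), with a limma adjusted p of 0.212.

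Type III collagen was arranged over the libraries much as Col1a2 was. Rescaled Col3a1 levels were 323, 286 and 302 TPM in the young libraries, within 1.13-fold of each other. In OH1, OH2 and OH5 they were 627, 295 and 772 TPM, a 2.62-fold range. OH2 therefore fell inside the narrow young range, and the other old libraries stood well above it. The means were 304 ± 18.8 in young and 565 ± 245 in old (SD, n = 3), with a log2 fold change of 0.78 ± 0.31 (SE, 95% interval 0.06 to 1.51). The unadjusted limma p was 0.0367 and the adjusted p 0.18.

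None of the 3 collagens passed the threshold with all libraries, against 2.66% of all genes called higher in old after rescaling. After rescaling, OH2 decided these calls. Without it the log2 fold changes were 1.11 for Col1a1, 1.13 for Col1a2 and 1.20 for Col3a1, with limma adjusted p values of 0.0467, 0.029 and 0.0105, and the old arm then held 2 libraries. In that fit 2.07% of all genes were called higher in old. Leaving out OH1 instead gave 0.59, 0.65 and 0.65, with none passing (limma adjusted p 0.557, 0.436 and 0.412). Leaving out OH5 gave 0.22, 0.43 and 0.50, and none passed (limma adjusted p 0.705, 0.439 and 0.377). The limma SE draws on the spread of all genes and was smaller than the SE from these genes' own libraries alone, which was 0.52 for Col1a1, 0.44 for Col1a2 and 0.42 for Col3a1.

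On the deposited scale no collagen passed, and each log2 fold change was smaller than its SE. Leaving out OH2 gave 0.37 for Col1a1, 0.39 for Col1a2 and 0.47 for Col3a1 there, and none passed (limma adjusted p 0.386, 0.355 and 0.316). The values that follow are from all libraries. Deposited Col1a1 was 10.7, 14.4 and 17.6 TPM in young and 15.3, 7.65 and 22.04 TPM in OH1, OH2 and OH5, with a log2 fold change of -0.01 ± 0.31 (SE) and a limma adjusted p of 0.967. Deposited Col1a2 was 8.09, 12.1 and 17.0 TPM in young and 14.6, 7.71 and 17.3 TPM in the old libraries, and its log2 fold change was 0.07 ± 0.31 (limma adjusted p 0.827). Deposited Col3a1 was 20.7, 30.4 and 31.8 TPM in young and 36.6, 17.8 and 39.3 TPM in the old libraries, and its log2 fold change was 0.12 ± 0.34 (limma adjusted p 0.745). The old and young libraries overlapped for all 3 chains, OH2 was lower than every young library for each, and young replicate 1 was the lowest young library for each. The 95% intervals, -0.64 to 0.61 for Col1a1 and -0.55 to 0.79 for Col3a1, leave room for changes in either direction. Against all genes, whose median was -0.53, these values lay high: 95.6%, 96.8% and 97.1% of the 9502 genes had a lower log2 fold change than Col1a1, Col1a2 and Col3a1. After rescaling the shares were 95.7%, 96.6% and 97%. Rescaling multiplies all genes kept in a library by the same factor. The place of each chain among all genes was therefore nearly fixed in advance, while its fold change moved.

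Fibronectin passed on neither scale, and its log2 fold change was positive after rescaling and negative on deposited TPM. Rescaled Fn1 was 90.2, 91.3 and 117 TPM in young replicates 1, 2 and 3, and 142, 93.6 and 155 TPM in OH1, OH2 and OH5. OH2 again fell among the young libraries and the other old libraries above them. The log2 fold change was 0.36 ± 0.20 (SE) with a limma adjusted p of 0.32. Deposited Fn1 was 5.77, 9.72 and 12.3 TPM in young and 8.27, 5.66 and 7.90 TPM in old, a log2 fold change of -0.27 ± 0.28 with a limma adjusted p of 0.371. The ages overlapped there as well, with OH2 lowest of all 6 libraries. Without young replicate 1 the deposited value was -0.55 with a limma adjusted p of 0.0116, the one setting in which Fn1 passed. In that fit 92.4% of all genes were called lower in old.

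**Figure D2:**
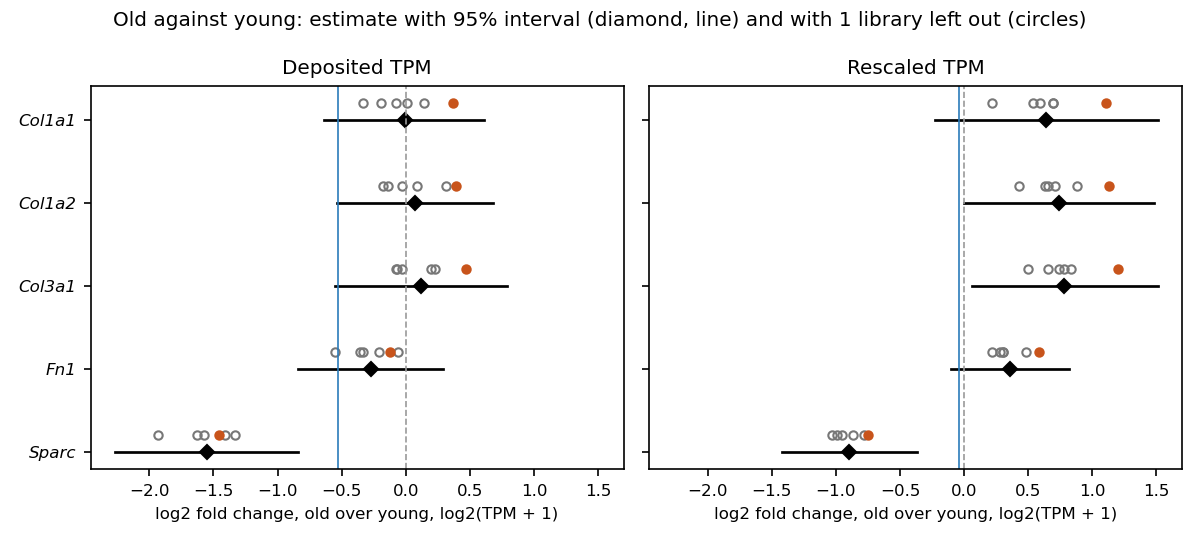
Log2 fold change of old over young on log2(TPM + 1), with its 95% interval (black), for deposited (left) and rescaled TPM (right); circles above each line leave out 1 library, filled where it is OH2. The dashed line is 0 and the blue line the median of all genes tested (-0.53 and -0.04); Sparc lies left of both on either scale, and leaving out OH2 gives the highest value for each collagen.

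Across the 5 genes the median log2 fold change was -0.01 on deposited TPM and 0.64 after rescaling. The medians of all genes tested were -0.53 and -0.04. On the deposited scale 0 genes rose, 1 fell and 4 did not pass. There 47.7% of all genes tested were called, 0.884% higher and 46.8% lower in old. After rescaling 0 rose, 0 fell and 5 did not pass (limma-trend, adjusted p below 0.05). There 6.07% of all genes were called, so these counts set the 5 genes apart on neither scale. At an unadjusted limma p below 0.05, Sparc (0.00417) and Col3a1 (0.0367) would pass on the rescaled scale, and Sparc alone (3.84e-05) on the deposited one. Of all genes tested, 23.5% did so after rescaling and 62.9% on deposited TPM. Col1a1 and Col1a2 encode chains of one protein and are not independent evidence of each other.

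The collagens were among the genes with the widest spread in old ventricle. The SD of rescaled log2 levels over the 3 old libraries was 0.889 for Col1a1, 0.72 for Col1a2 and 0.73 for Col3a1, against a median of 0.13 over all genes tested. Of the 9487 genes, 99.7%, 99.2% and 99.2% had a smaller SD among old libraries. Among young libraries the SDs were 0.176, 0.255 and 0.0887, against a median of 0.179, and 49%, 70.7% and 17.2% of genes had a smaller one. Sparc had similar rescaled SDs in both ages, 0.251 in young and 0.255 in old. Fn1 lay between, at 0.212 in young and 0.386 in old. With 3 animals per age the difference in spread between ages was not tested.

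A ratio of 2 genes within a library does not depend on how the library is scaled. The ratio of Sparc to each of the other 4 genes was lower in every old library than in every young one. The ratio of Sparc to Fn1 was 34.7, 42.6 and 37.6 in young replicates 1, 2 and 3 and 15.4, 17.7 and 14.8 in OH1, OH2 and OH5. It was the tightest of the Sparc ratios within each age, and OH2 stood with the other old libraries. Sparc to Col3a1 was 9.67, 13.6 and 14.6 in young and 3.48, 5.61 and 2.98 in old. Sparc to Col1a1 was 18.7, 28.8 and 26.3 in young and 8.33, 13.1 and 5.30 in old, and Sparc to Col1a2 was 24.7, 34.1 and 27.3 in young and 8.69, 13.0 and 6.76 in old. This separation of the ages was not particular to these partners: the ratio of Sparc to another gene did not overlap between ages for 78.4% of the 9480 other tested genes that were above 0 in all libraries, a count made after the data were seen. In geometric mean the ratio was higher in young by 2.40-fold for Fn1, 3.21-fold for Col3a1, 2.91-fold for Col1a1 and 3.12-fold for Col1a2. OH2 had the highest old ratio for each partner.

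**Figure D3:**
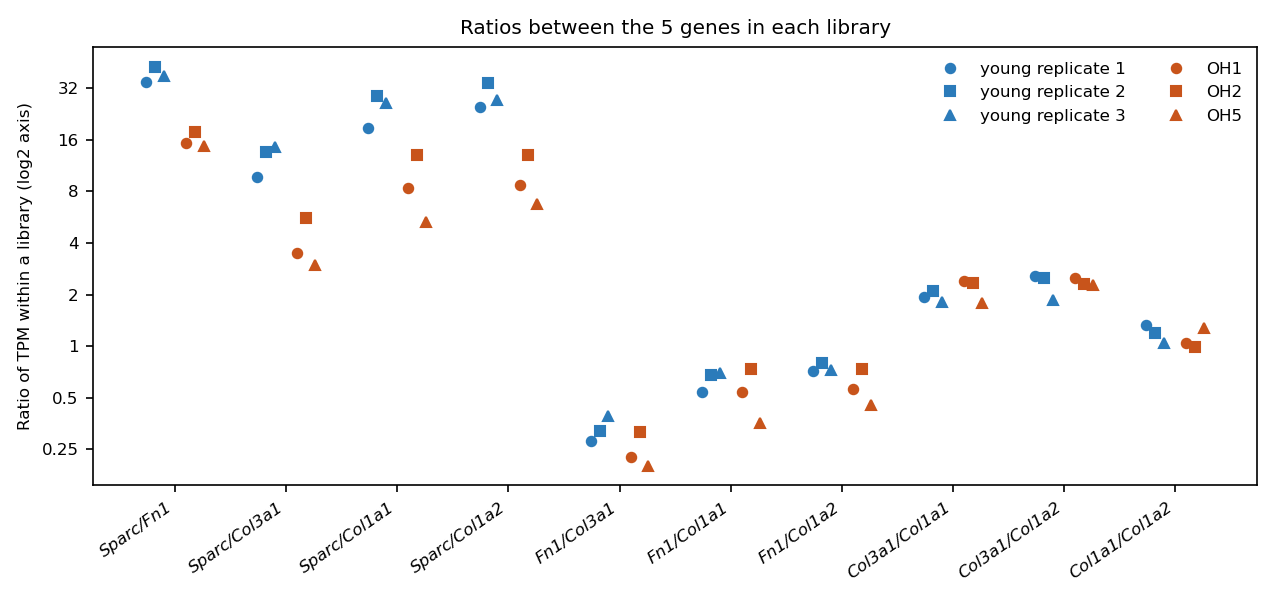
Ratio of TPM between each pair of the 5 genes within a library, on a log2 axis; blue points are young and orange points old libraries. The ages separate in the 4 pairs that hold Sparc and overlap in the 6 pairs that do not. The ratio of Sparc to another gene separated the ages for 78.4% of the 9480 genes compared. No such share was counted for the collagens or Fn1.

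The 6 pairs without Sparc overlapped between ages. How often the ratio of a collagen or Fn1 to any other gene overlaps was not counted. Col3a1 to Col1a1 was 1.95 ± 0.156 in young libraries and 2.17 ± 0.338 in old ones (SD, n = 3), and Col3a1 to Col1a2 was 2.31 ± 0.381 in young and 2.36 ± 0.123 in old. Per length, transcripts of the type III chain thus exceeded those of either type I chain at both ages, and the means of the ages differed by less than the larger SD. Col1a1 to Col1a2 ran from 1.04 to 1.32 in young and from 0.991 to 1.27 in old. Fn1 to Col1a2 was 0.747 ± 0.0474 in young and 0.585 ± 0.139 in old, and Fn1 to Col3a1 was 0.329 ± 0.0553 and 0.248 ± 0.0613. Exact two-sided permutation tests gave p = 0.1 for each pair with Sparc, the smallest possible, and 0.2 to 1 for the others. Adjusted over the 10 pairs (Benjamini-Hochberg), the Sparc pairs were at 0.25, and no pair can pass 0.05 in this design. The 4 Sparc pairs share the Sparc values and are not separate observations.

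Sparc took 84.4% ± 2.44 of the summed TPM of the 5 genes in young libraries and 64.2% ± 7.32 in old ones (SD, n = 3). Col3a1 took 6.87% ± 1.37 in young and 16.7% ± 3.46 in old, and Fn1 2.22% ± 0.174 and 4.01% ± 0.116. These shares add up to a fixed total, so a lower share of Sparc goes with higher shares of the other genes. Together the 5 genes held 0.383%, 0.451% and 0.515% of the TPM outside the 15 abundant genes in young and 0.346%, 0.23% and 0.4% in OH1, OH2 and OH5, a sum led by Sparc.

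The rank of a gene within its own library is also free of scaling between libraries. By deposited TPM among all 23976 genes, Sparc ranked 32, 32 and 25 in young replicates 1, 2 and 3 and 42, 56 and 39 in OH1, OH2 and OH5. Its rank was thus lower in every old library. The ranks come from the same values as the levels and are no separate evidence. The share of all genes whose ranks did not overlap between ages was not counted. Col3a1 ranked 438, 541 and 494 in young and 186, 475 and 123 in old. Col1a1 ranked 1153, 1474 and 1137 in young and 581, 1612 and 271 in old. For both, OH1 and OH5 lay well above the young ranks, whereas OH2 was among the young ranks for Col3a1 and below them for Col1a1. Fn1 was the lowest of the 5 in every library, at ranks 2640, 2483 and 1898 in young and 1413, 2387 and 1157 in old. In every library the order by level per length began with Sparc and then Col3a1 and ended with Fn1. Col1a1 exceeded Col1a2 in 5 libraries and lay just under it in OH2.

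**Figure D4:**
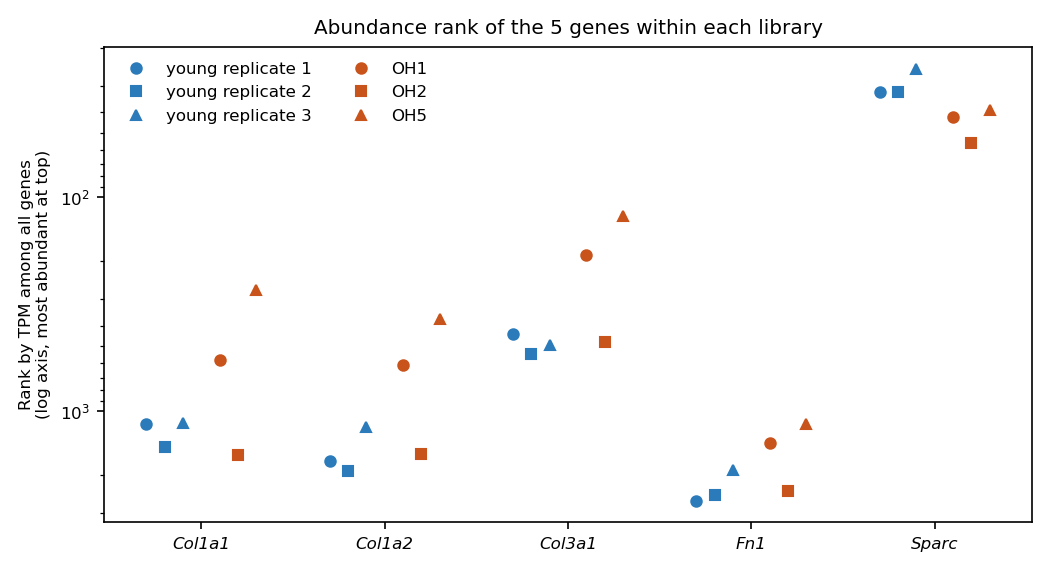
Rank by TPM of each gene among all genes of its library, on a log axis with the most abundant gene at the top; blue points are young and orange points old libraries. Sparc ranks 25 to 32 in young and 39 to 56 in old libraries, and the collagens rank highest in OH5 and OH1.

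Likeness of pattern was described by the Pearson correlation of rescaled log2 levels over the 6 libraries, without a test, since the libraries share their age groups. Col1a1 correlated with Col1a2 at r = 0.97 and with Col3a1 at r = 0.96, places 9 and 10 among the 9486 other genes. For Fn1, Col1a2 was the gene in place 2 (r = 0.98). Col3a1 and Fn1 correlated at r = 0.91, where Fn1 was in place 102. For Sparc r ran from -0.42 (Col3a1) to -0.22 (Fn1), and it moved with the libraries included. Without OH2 and young replicate 3, the libraries farthest from the Sparc median, the r of Sparc was -0.94 to -0.87 with the 4 genes. Among the libraries kept, OH1 and OH5 lay below young replicates 1 and 2 in Sparc and above them in the 4 genes. This r thus largely restates the age groups. Without OH1 and OH5, the farthest from the median of each of the 4 genes, the r of Sparc was 0.65 with Col1a1, 0.46 with Fn1, 0.30 with Col1a2 and 0.04 with Col3a1. The collagen values rest on the high levels of OH1 and OH5: over the other 4 libraries r was 0.60 for Col1a1 with Col1a2, 0.75 for Col1a1 with Col3a1, 0.26 for Col1a2 with Col3a1 and -0.03 for Col3a1 with Fn1. For Col1a2 with Fn1 it was 0.94. The genes nearest to each member carry no symbol in the sources used here and are not named.

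The column names of the libraries end in 1 (young replicates 1 and 3, OH1) or 2 (young replicate 2, OH2, OH5), a suffix the labels do not explain. Within suffix 1 the rescaled log2 difference of old minus young was -0.77 for Sparc, 0.64 for Col1a1, 0.81 for Col1a2, 1.0 for Col3a1 and 0.46 for Fn1. Within suffix 2 it was -1.0, 0.79, 0.87, 0.74 and 0.40 for the same genes. Each set has 1 library in one arm (OH1 in the former, young replicate 2 in the latter), so these are values with no test. For Sparc the direction was fixed because the ages do not overlap. Within suffix 1 it was also fixed for the collagens and Fn1, as rescaled OH1 lay above every young library. On deposited TPM only Sparc (-1.25 and -1.93) and Fn1 (-0.04 and -0.48) kept 1 direction, and the collagens did not (Col3a1 0.50 and -0.19). With the suffix as a second term the rescaled Sparc value was -0.88 with a limma adjusted p of 0.146, and the deposited one -1.59 with 0.00773.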

How the data were processed

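Total RNA of left ventricle was depleted of ribosomal RNA and made into directional paired-end libraries, per the labels' protocols. Salmon and the build mRatBN7.2 are named in the submitters' processing notes (version, annotation and gene-level summing: not given in the sources used here). Deposited by the authors were TPM for 23976 genes in 6 columns, each summing to 1000000. Young columns were matched to samples by the individual number. The numbers in the old column names (OH1, OH2, OH5) do not identify the labelled animals, so these columns were assigned to the old group only. No column was left unmapped.

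Genes reaching 1 TPM in 3 or more libraries were compared between ages with limma-trend (limma 3.58.1, R 4.3.3), fitted to log2(TPM + 1) with no other term, and Benjamini-Hochberg adjustment over all genes tested. A fold change on this scale understates that of low genes. The limma prior degrees of freedom were 91.8 on deposited and 4.22 on rescaled TPM, beside 4 residual ones, so deposited-scale errors rest mostly on a spread shared by all genes. The fits were tested on simulated data with independent noise for each gene. A shift shared by many genes of a library was not simulated, so its effect on the adjusted p values was not checked. The members, and the lists that went unused, were chosen with earlier results of these data known. All 5 members were named; gene lists of the collagen pathway and of cell types, and the sequences of the genes, could not be used without matching symbols. The labels give separate animals as replicates.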

Additional observations from a re-analysis of the deposited data

How the results depend on the processing

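On the deposited scale Sparc was lower in old in all 12 alternatives and passed in 10. It missed without a filter (-1.55, limma adjusted p 0.0903) and with only genes at 0 in every library removed (-1.55, 0.0534). Leaving out 1 library gave -1.93 to -1.33. Rescaled Sparc was lower in all 15 alternatives and passed in 4: no intensity trend (-0.90), median-ratio scaling (-0.88), quantile normalization (-1.06) and without young replicate 1 (range with 1 library left out -1.03 to -0.75). A direction set by groups that do not overlap is no sign of stability. The rescaled collagens and Fn1 stayed higher in old throughout; with 1 library left out they ran from 0.22 to 1.11 (Col1a1), 0.43 to 1.13 (Col1a2), 0.50 to 1.20 (Col3a1) and 0.22 to 0.58 (Fn1). On deposited TPM Fn1 ran from -0.55 to -0.06. The collagens changed sign there: Col1a1 was 0.01 with a pseudocount of 10, 0.01 with the suffix as a term and -0.33 to 0.37 with 1 library left out (0.01 without young replicate 2, 0.14 without young replicate 3, 0.37 without OH2). Col1a2 ran from -0.18 to 0.39 (-0.18 without young replicate 1, -0.03 without OH1, -0.14 without OH5) and Col3a1 from -0.08 to 0.47 (-0.07, -0.03 and -0.08 without the same libraries). The ratio of Col3a1 to Col1a2 went from 0.04 to -0.10 (log2, old minus young) without young replicate 3 and ran up to 0.12 without young replicate 1, and that of Fn1 to Col1a1 went from -0.28 to 0.0 without OH5 and to -0.53 without OH2. Only the ratio of Col3a1 to Col1a2 changed sign. The cause was not tested.

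Over all genes, 4533 passed on deposited TPM (84 higher, 4449 lower) and 576 after rescaling (252 higher, 324 lower). Without a filter these were 1 (0 higher, 1 lower; 6462 at an unadjusted limma p below 0.05) and 6 (2 higher, 4 lower). With only genes at 0 in every library removed they were 3 (0 higher, 3 lower; 6968 at an unadjusted limma p below 0.05) and 334 (154 lower). With the suffix as a term they were 1385 (41 higher, 1344 lower) and 174 (109 higher, 65 lower). With 1 library left out they ran from 388 to 8857 (29 to 73 higher, 359 to 8784 lower; the most without young replicate 1) and from 67 to 453 (36 to 196 higher, 31 to 259 lower; the fewest without OH1). No paired analysis was possible because the old columns carry no replicate number of the labels. Young and old libraries also come from different animals per the labels, so a shared replicate number would not by itself make a pair. Alternatives for gene lists were not run, since no list could be matched. The depth is unknown, so what it limits cannot be stated.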
